A study of Mus musculus with 11 samples.

Results

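Oligodendrocytes wrap axons of the brain in myelin, a stack of lipid-rich membrane that is held together by a small set of very abundant proteins and that speeds the spread of the action potential. The cells arise from precursors that carry Pdgfra and Cspg4, pass through a short newly formed stage marked by Enpp6 and Bcas1, and then make myelin proteins and galactolipids under transcription factors such as Sox10 and Olig1. The genes described here are 35 oligodendrocyte and myelin genes, taken by symbol from the 36666 genes of a count table of mouse cerebrum. The list was selected on function but with the gene counts of mutator against control mice already in view, so it counts as chosen by that contrast, which is given here as a description of the members and supports no claim about the list as a whole. All 35 were present and all 35 passed the filter on low counts, as did 17983 genes in all.

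The study sequenced poly(A)+ RNA from the frozen cerebrum of 11 male C57/Bl6 mice aged 1 year. The 7 mutator mice were homozygous for the D257A allele of Polg (D257A/D257A), which encodes a mitochondrial DNA polymerase that lacks proofreading, and were knock-in animals that carry the allele in every cell. The 4 controls were 3 WT/WT mice (205, 239 and 246) and 1 mouse heterozygous for the allele (WT/D257A mouse 237), so 1 of the controls also carried D257A. Each library is 1 mouse, and the count per library ranged from 28249345 to 121182250. In mutator mouse 248 there were 3 counts per aligned read in the deposited read totals, against 0.744 to 0.775 in the other 10 mice. The 35 genes took 0.683% to 0.868% of all counts, with between 106 and 337640 counts per gene and mouse. Levels below are CPM, the counts of a gene per 1000000 counts of the library after scaling with TMM factors, and levels between genes are compared only per kilobase of merged exon.

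The 35 genes did not move as one block. The log2 fold change of mutator against control was negative for 24 and positive for 11, with a median of -0.11 over the 35 beside 0.00 over all genes tested. The genes with the lowest values were Klk6, a secreted serine protease (-1.03, SE 0.21), Pllp, a proteolipid of the myelin membrane (-0.52, SE 0.15), and Enpp6, a choline phosphodiesterase of newly formed oligodendrocytes (-0.44, SE 0.12). At the other end stood Bcas1, a marker of early myelinating cells (0.33, SE 0.11), and Apod, a lipid-binding lipocalin (0.29, SE 0.07). The abundant structural transcripts lay on both sides of 0, with Mbp at 0.13 and Mobp at 0.15, but Cnp at -0.25 and Mag at -0.31. Of the 35 genes, 2 passed an adjusted p of 0.05 in edgeR with lower levels in the mutators, Klk6 and Fa2h, against 0.801% of all genes tested. None passed with higher levels, against 0.439% of all genes, although at an unadjusted p under 0.05 there were 14 lower and 2 higher members, beside 1543 lower and 1291 higher of the 17983 genes tested. DESeq2 called 7 members lower (Enpp6, Fa2h, Gal3st1, Gpr37, Klk6, Mag and Olig1) and 2 higher (Apod and Bcas1). It called 615 genes in all, and 28093 genes had a p-value. How many of these also had an adjusted p was not counted, so that share is not comparable with the shares of edgeR.

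**Figure D1:**
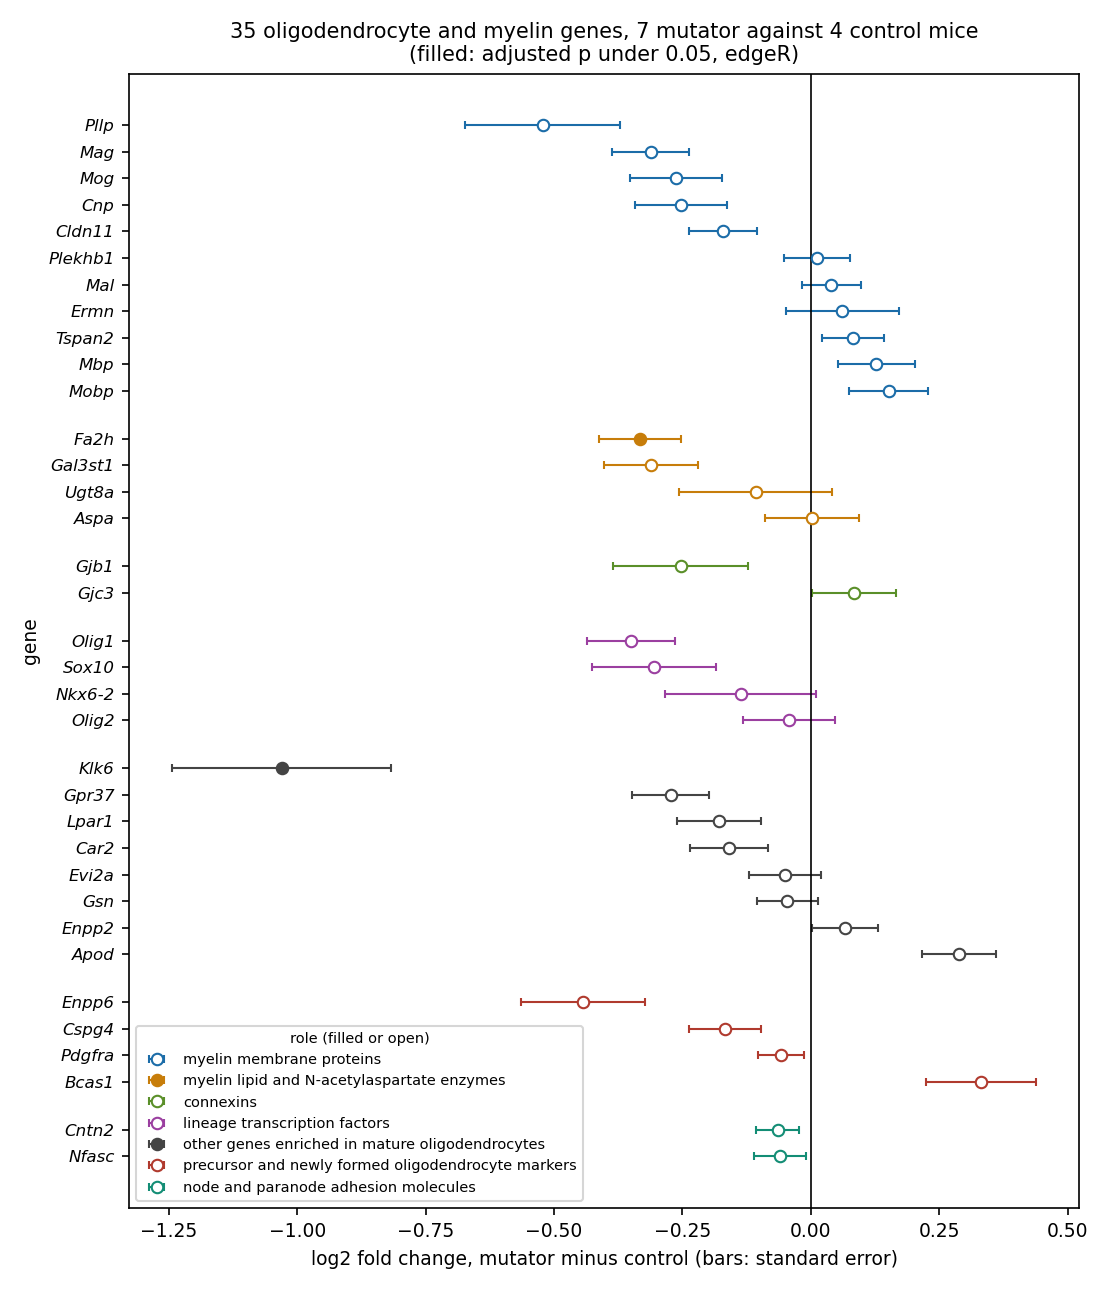
Log2 fold change of each of the 35 genes, mutator minus control, on the x axis, by role, with bars for the standard error (7 mutator and 4 control mice). Klk6 at -1.03 and Fa2h at -0.33 are the filled points, while Mbp at 0.13, Mobp at 0.15, Apod at 0.29 and Bcas1 at 0.33 lie to the right of 0.

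Whether the levels of the 7 mutators and the 4 controls overlapped was also counted. Klk6 had all 7 mutators below all 4 controls, where 1.42% of all genes did, and Bcas1 had all 7 above, where 1.2% of all genes did. The remaining 33 members overlapped. For 12 of them, 6 of the 7 mutators lay below every control, and for 10 of those 12 the exception was mutator mouse 217. The share of all genes with 6 of 7 mutators below every control was not counted. The 12 therefore only describe members that were chosen with this contrast in view. Because the tissue is bulk, fewer cells of the lineage and less RNA per cell cannot be told apart in any of these values.

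Among the myelin membrane proteins, 5 of 11 had negative and 6 positive fold changes. Mbp, the myelin basic protein that seals the cytoplasmic faces of the sheath, had the highest level per kilobase of all 35 genes, 341 CPM per kilobase in the controls. It was at 2763, 2630 and 2936 CPM in the 3 WT/WT mice and 3149 CPM in WT/D257A mouse 237, and ran from 2684 through a median of 3179 to 3720 CPM in the mutators. The ranges overlapped, with 4 of the 7 mutators above every control and a log2 fold change of 0.13 (SE 0.08). Pllp was at 57, 56.6 and 52.4 CPM in the WT/WT mice and at 60.4 CPM in mouse 237, and ran from 29.1 through 37.3 to 55.4 CPM in the mutators. Mutator mouse 217 alone fell within the control range, and the next highest mutator was at 46.2 CPM. Mag, an adhesion protein of the innermost myelin wrap that contacts the axon, was at 195, 202, 211 and 234 CPM in the controls and ran from 148 through 164 to 208 CPM in the mutators, a log2 fold change of -0.31 (SE 0.08). Again 6 mutators lay below every control and mouse 217 did not.

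Mog, a glycoprotein of the outermost lamella, Cnp, an enzyme that keeps cytoplasmic channels in myelin open, and Cldn11, the claudin of its tight junctions, had log2 fold changes of -0.26 (SE 0.09), -0.25 (SE 0.09) and -0.17 (SE 0.07). Each had 6 of 7 mutators below all controls. Mobp, a basic protein of compact myelin, stood at 0.15 (SE 0.08). The tetraspanin Tspan2 was at 0.08 (SE 0.06), the cytoskeletal protein Ermn at 0.06 (SE 0.11), the raft proteolipid Mal at 0.04 (SE 0.06) and Plekhb1 at 0.01 (SE 0.06). No gene of this group passed the adjusted threshold in edgeR.

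The enzymes that build myelin lipids are few and act in one chain. Fa2h adds a hydroxyl group to the fatty acids of galactolipids, Ugt8a attaches galactose to ceramide, and Gal3st1 turns the product into sulfatide. Fa2h was at 41.6, 40.7 and 44.2 CPM in the WT/WT mice and at 46.1 CPM in mouse 237, and ran from 29.4 through 33.8 to 43.1 CPM in the mutators, a log2 fold change of -0.33 (SE 0.08, adjusted p = 0.0498), and this call was kept in 4 of 17 distinct alternative settings. Mouse 217 held the top mutator value, inside the control range, and the other 6 did not exceed 36.4 CPM. Ugt8a, the most abundant of the group per kilobase, was at 76.4, 69, 78.2 and 67.4 CPM in the controls and ran from 45 through 66.6 to 88.3 CPM, the widest mutator range of the group. Its fold change of -0.11 was smaller than its SE of 0.15. Gal3st1 stood at -0.31 (SE 0.09), with 6 mutators below every control. Aspa, which splits N-acetylaspartate in oligodendrocytes and so frees acetate, stood at 0.00 (SE 0.09).

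Connexins couple oligodendrocytes to astrocytes and link the layers of the sheath. Gjc3 was at 67.4, 58.3, 55.2 and 61.1 CPM in the controls and ran from 57.5 through 60.4 to 80.4 CPM in the mutators. Gjb1 was at 15.5, 16.7, 21 and 19.3 CPM in the controls and ran from 12.7 through 13.9 to 21.4 CPM, with 5 mutators below every control. Their log2 fold changes were 0.08 (SE 0.08) and -0.25 (SE 0.13), and in both the ranges overlapped.

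All 4 lineage transcription factors had negative fold changes, and none passed the adjusted threshold. Olig1, a basic helix-loop-helix factor needed for maturation and repair, was at 107, 122 and 117 CPM in the WT/WT mice and at 124 CPM in mouse 237, and ran from 77 through 90.2 to 108 CPM in the mutators. Only the top mutator, mouse 236, entered the control range. The log2 fold change of Olig1 was -0.35 (SE 0.09), while that of Olig2, its neighbour on chromosome 16 that specifies the lineage, was -0.04 (SE 0.09). Sox10, which activates myelin genes, stood at -0.30 (SE 0.12) and Nkx6-2, a homeobox factor of maturing oligodendrocytes, at -0.14 (SE 0.15).

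Of the 8 other genes enriched in mature oligodendrocytes, Klk6 stood apart. It was at 7.86, 7.1 and 6.83 CPM in the WT/WT mice and at 7.3 CPM in mouse 237, and ran from 2.4 through 3 to 6.34 CPM in the mutators. Mutator mouse 217 had the top value, just under the lowest control, and the other 6 lay at or below 4.12 CPM. The mutator mean was 0.49 times the control level (adjusted p = 0.0375), and this call was kept in 7 of 17 distinct alternative settings. Enpp2, autotaxin, which makes lysophosphatidic acid and had the highest level per kilobase of the group, was at 500, 495, 555 and 553 CPM in the controls and ran from 448 through 559 to 616 CPM, a log2 fold change of 0.07 (SE 0.06). Its receptor gene Lpar1 stood at -0.18 (SE 0.08). Gpr37, an orphan receptor of maturing cells, stood at -0.27 (SE 0.08) and Car2, carbonic anhydrase, at -0.16 (SE 0.08). Evi2a and the actin-severing Gsn stood at -0.05, each within 1 SE of 0, and Evi2a shares exon bins with an overlapping gene.

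The 4 markers of precursors and newly formed cells spread in both directions. Bcas1 was at 182, 173 and 186 CPM in the WT/WT mice and at 203 CPM in mouse 237, and ran from 206 through 213 to 306 CPM in the mutators. The gap between the groups was narrow, since the lowest 2 mutators were at 206 CPM. With all mice, edgeR did not call Bcas1 (adjusted p = 0.158), while DESeq2 did (adjusted p = 0.0224). Enpp6, which marks the same stage, was at 7.23, 6.86, 6.36 and 7.58 CPM in the controls and ran from 4.05 through 5 to 7.18 CPM in the mutators. For Enpp6 too, the mutators other than mouse 217 all lay below the controls, at or under 5.4 CPM. Pdgfra, the growth factor receptor of precursors, and Cspg4, the NG2 proteoglycan, stood at -0.06 (SE 0.05) and -0.17 (SE 0.07).

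Nfasc and Cntn2 hold axon and myelin together at and beside the nodes of Ranvier and are also made by neurons. Nfasc was at 341, 364, 334 and 387 CPM in the controls and ran from 314 through 343 to 364 CPM in the mutators. Cntn2 was at 203, 200, 202 and 214 CPM and ran from 187 through 193 to 205 CPM. Both log2 fold changes were -0.06, with SEs of 0.05 and 0.04, and both pairs of ranges overlapped.

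**Figure D2:**
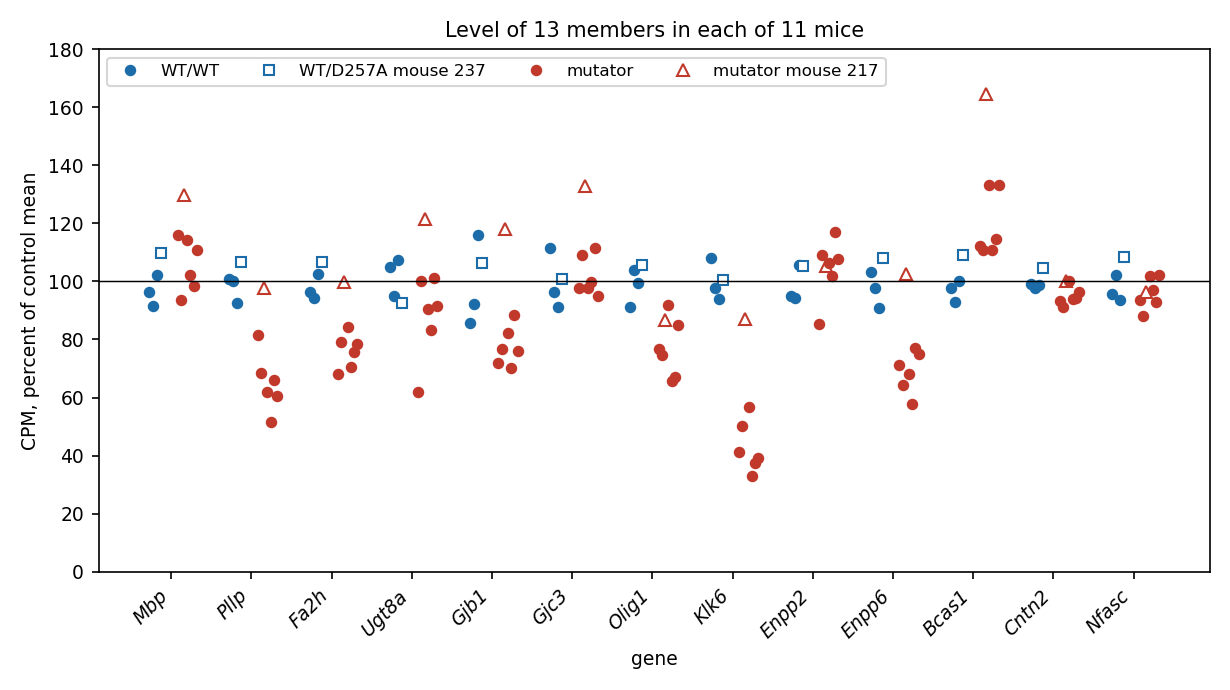
Level of 13 of the genes in each of the 11 mice, as a percentage of the mean of the 4 controls on the y axis. Each point is 1 mouse, and mutator mouse 217 (open triangle) is the highest mutator for 10 of the 13, while the other 6 mutators lie below every control for Pllp, Fa2h, Klk6 and Enpp6.

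The mutators spread over a wider range than the controls. The mean over the 35 genes of log2 CPM minus the control mean was -0.02, -0.06 and 0.02 for the WT/WT mice and 0.07 for mouse 237. It was -0.19, -0.20, -0.10, -0.28, -0.15 and -0.20 in mutator mice 207, 211, 236, 240, 248 and 249, and 0.13 in mouse 217. Mouse 217 was thus above every control and the other 6 mutators below every control. The genes were chosen with this contrast in view, so the split of the groups only describes them. Mouse 217 was the highest mutator for 27 of the 35 genes, while it was the highest for 16.2% of all genes tested. At the low end, mouse 240 was the lowest mutator for 13 genes. Mouse 217 was neither the deepest nor the shallowest library, with 54775881 counts, and a TMM factor of 1.

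The same mouse was looked at in oligodendrocyte genes outside the 35. It was the highest mutator for 23 of 40 other genes of mature oligodendrocytes, but for 1 of 16 other precursor genes. It was the highest mutator for 7 of 10 microglia markers, 4 of 10 astrocyte markers, 4 of 9 neuron markers, 0 of 9 endothelial markers and 0 of 8 striatal markers. Among the controls, the WT/D257A mouse was the highest for 21 of the 35 genes and for 28.4% of all genes. Without mouse 217, edgeR called 14 of the 35 genes, of which 13 were lower (Car2, Cnp, Enpp6, Fa2h, Gal3st1, Gjb1, Gpr37, Klk6, Lpar1, Mag, Mog, Olig1 and Pllp) and 1 was higher (Bcas1), with 318 of 18026 genes called in all. Without the WT/D257A mouse it called 0, with 50 of 18304 in all, and without any 1 of the other mice between 0 and 2. The number of calls thus turned on single mice. The median fold change stayed between -0.16 and -0.06 whichever mouse was left out. That median is over genes chosen with this contrast in view, so its steady sign supports no claim about the list.

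**Figure D3:**
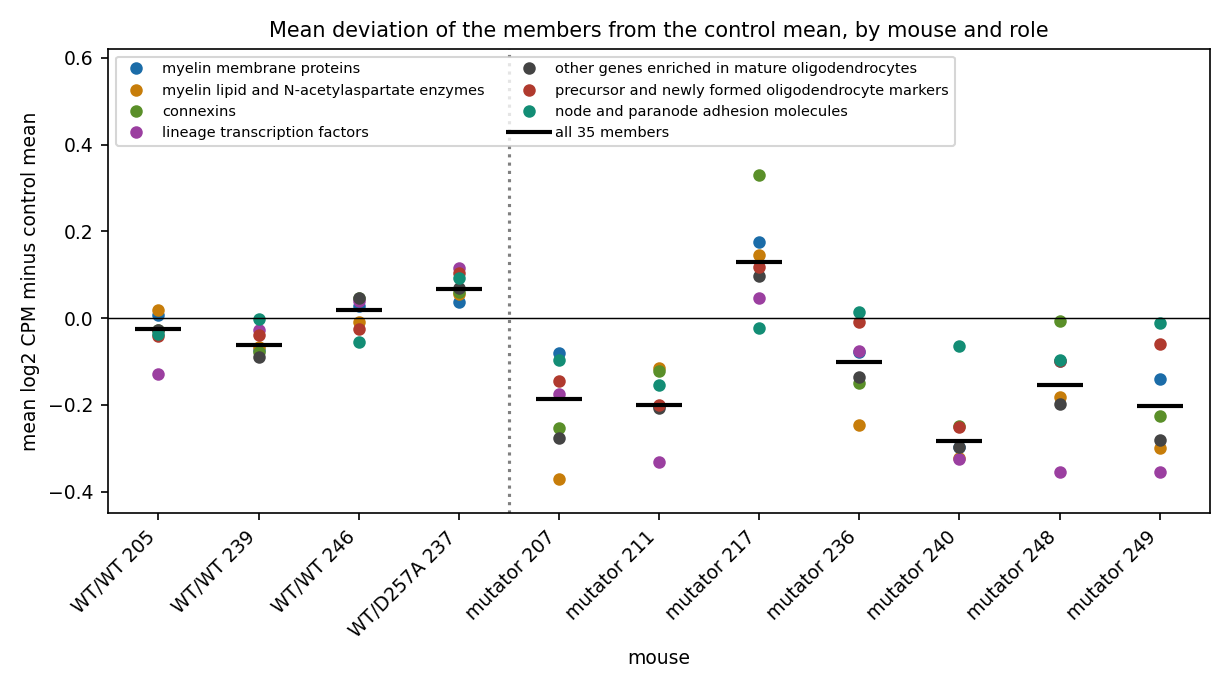
Mean of log2 CPM minus the control mean for the genes of each role (coloured points) and for all 35 (black bars), y axis, in each mouse, x axis. Mutator mouse 217 is at 0.13 for all 35 genes and the other 6 mutators lie between -0.28 and -0.10.

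Other oligodendrocyte genes were listed from textbook knowledge, without regard to how they moved but with earlier results of these data known. Of 40 genes of mature oligodendrocytes outside the 35, 33 had negative fold changes and 3 passed the adjusted threshold, all lower in the mutators, where 0.801% of all genes did so, with a median of -0.16. Opalin, a membrane protein of the paranodal loops, was at 22.5, 22.7, 22.6 and 23.7 CPM in the controls and ran from 9.12 through 13.3 to 18.9 CPM in the mutators, a log2 fold change of -0.81 (SE 0.16, adjusted p = 0.0385). Ninj2, an adhesion molecule, was at 1.96, 2.6, 2.98 and 2.42 CPM and ran from 1.01 through 1.29 to 1.88 CPM, a change of -0.87 (SE 0.17, adjusted p = 0.012). In both genes all 7 mutators lay below the 4 controls, and in both mouse 217 was the highest mutator. Adamts4, a protease of the extracellular matrix, changed by -0.34 (SE 0.07, adjusted p = 0.0241), with 6 mutators below every control. These 3 calls were all lost without the WT/D257A mouse or without WT/WT mouse 246, and over 17 distinct alternatives the call was kept in 6 for Opalin and in 14 each for Ninj2 and Adamts4. At an unadjusted p under 0.05, 17 of the 40 were lower and 2 higher, beside the 1543 lower and 1291 higher of 17983 given above. For 3 of the 40 all 7 mutators lay below all controls, beside 1.42% of all genes. For 1 of the 40 all 7 lay above, beside 1.2% of all genes. The 3 were Opalin, Ninj2 and Sema4d (-0.12, SE 0.04), and the 1 was Tppp3 (0.39, SE 0.10, adjusted p = 0.0623 in edgeR).

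The 16 other precursor genes had a median of -0.01 and none passed the adjusted threshold. The largest change among them was that of Neu4, a sialidase, at -0.34 (SE 0.10, adjusted p = 0.0996). Of 13 tested genes for sterol and sulfatide supply, a list that also holds the members Ugt8a, Fa2h and Gal3st1, 11 had negative fold changes, with a median of -0.09, and the 1 that passed was Fa2h. None of 8 other nodal and paranodal genes passed, the largest change being that of Cntnap1, the partner of contactin on the axon, at -0.18 (SE 0.05, adjusted p = 0.0951).

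**Figure D4:**
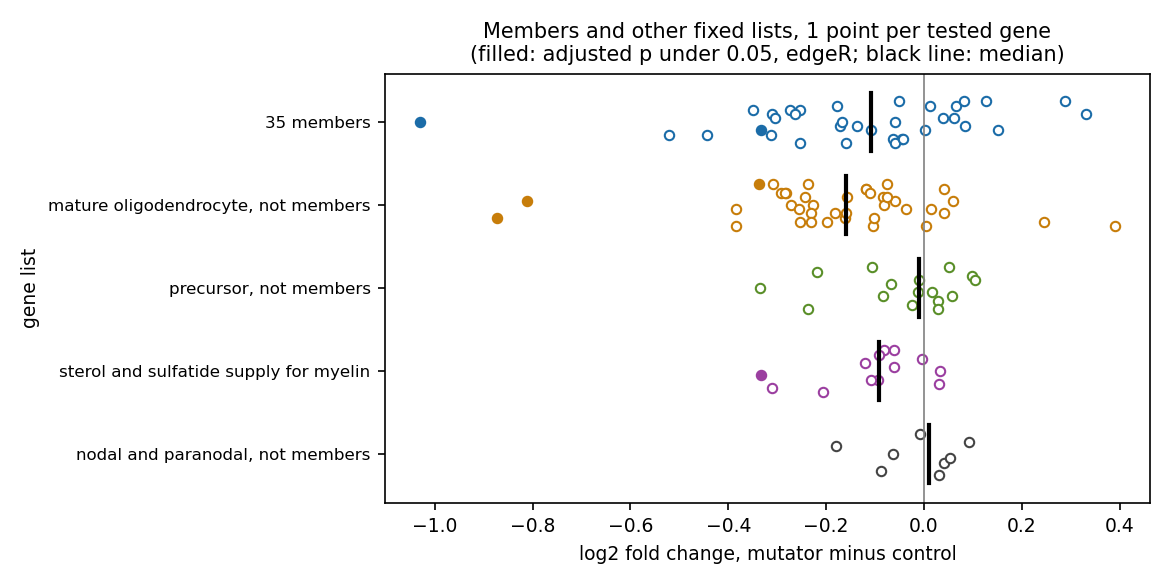
Log2 fold change, x axis, of each tested gene of the 35 and of 4 further lists, with 1 point per gene and a black line at the median of each list. The medians are -0.11 for the 35 genes, -0.16 for other mature oligodendrocyte genes, -0.01 for other precursor genes, -0.09 for lipid supply and 0.01 for nodal genes.

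Markers of other cells were summed in each mouse, and their part in these values was not tested. The most abundant genes dominate a sum, such as Slc1a2 for astrocytes (mean of 2922 CPM in the controls) and Ttr for choroid plexus (552 CPM). Of the 10 astrocyte markers, 6 had negative and 4 positive fold changes. Astrocyte markers summed to 4277 to 4646 CPM in the controls and 4056 to 4420 CPM in the mutators, and microglia markers to 323 to 408 CPM and 306 to 378 CPM. All 10 microglia markers had negative fold changes and none passed the adjusted threshold. Neuron markers summed to 6575 to 7026 CPM and 6339 to 6794 CPM, and striatal markers to 818 to 988 CPM and 697 to 855 CPM. Of all markers, 1 passed, the striatal adenosine receptor Adora2a, at -0.35 (SE 0.08, adjusted p = 0.0376). Endothelial markers summed to 318 to 393 CPM in the controls and 356 to 451 CPM in the mutators, choroid plexus markers to 517 to 696 CPM and 529 to 758 CPM, and blood markers to 46.4 to 159 CPM and 69.3 to 195 CPM. Schwann cells make the myelin of peripheral nerves, and their marker Pmp2 had 0 to 2 counts per mouse.

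The choice of the genes did not use how reads spread over the exons within each gene, so exon usage was tested. The study compared exon counts in 10 mice, 7 mutators and the 3 WT/WT, and those counts were divided into bins of a flattened annotation. The 35 genes held 465 bins, of which 391 bins of 34 genes passed the filter, since Olig1 has a single bin. Of these 391, 0 passed an adjusted p of 0.05 in edgeR's diffSpliceDGE, where 0.0237% of all 206930 bins did. At an unadjusted p under 0.05 there were 3 bins (0.767%, beside 1.9% of all bins), and limma's diffSplice gave 4 (1.02%, beside 2.69%) and also called 0. The median SE of a bin's log2 change in usage was 0.114, so changes of a small fraction of a bin's usage were not detectable at this depth and number of mice. The lowest p belonged to bin 26 of Cntn2 (chr1:134439300-134439516, NCBIM37), singled out after the values were seen. That bin took 1.16% to 1.3% of the Cntn2 bin counts in the WT/WT mice and 0.891% to 1.09% in the mutators, a log2 change of -0.35 (SE 0.11, unadjusted p = 0.00496 and adjusted p = 1 in edgeR).

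Mag has a small alternative exon that decides the end of the protein. Transcripts with the exon stop within it and encode the short form, and transcripts without it read on to the long form. The exon lies on the minus strand at chr7:31685371-31685415 (NCBIM37) and is printed from that genome because its use was measured, with the annotated stop codon in capitals.
Mag alternative exon: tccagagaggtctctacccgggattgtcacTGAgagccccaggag
This exon took 3.76%, 3.58% and 3.5% of the Mag bin counts in the WT/WT mice and ran from 3.52% through 3.81% to 4% in the mutators. The values overlapped, and the difference of 0.18 percentage points (SE 0.10) gave p = 0.133 in a 2-sided exact permutation test over mice, 0.267 adjusted over the 2 shares tested this way. With 3 against 7 mice the smallest p possible is 0.00833. The counts behind each share were 202 to 903.

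Mbp has a second, far upstream start, whose transcripts encode the golli proteins found in neurons and immature cells as well as in oligodendrocytes. Between its first annotated start and that of the classic myelin transcripts lie introns and the exons of golli alone, and 9 of the 31 bins belong only to annotated golli transcripts. Of these 9, 8 lie before the classic start, while bin 17, of 3953 bases, lies after it. Whether all counts of bin 17 come from golli transcripts was not tested. The 9 bins took 1.52%, 1.51% and 1.39% of the Mbp bin counts in the WT/WT mice and ran from 1.06% through 1.47% to 1.66% in the mutators. The difference was -0.07 percentage points (SE 0.10), with p = 0.633 in the same exact permutation test and 0.633 adjusted. The lowest share, 1.06%, was in mouse 217, which also had the highest Mbp level. All Mbp bin counts form the denominator of the share, so the share and the level are not independent.

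**Figure D5:**
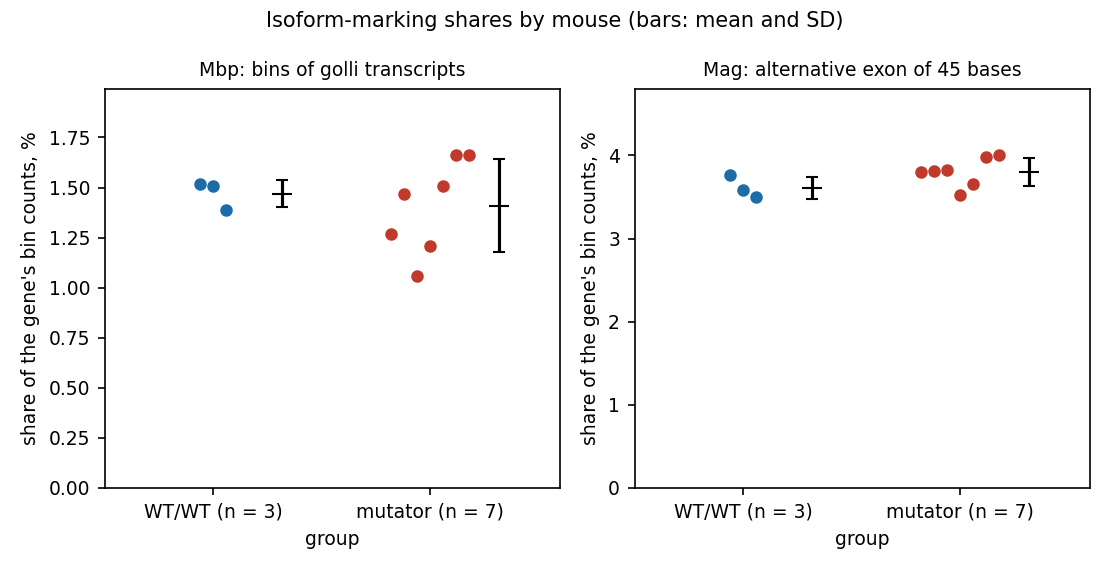
Share of the Mbp bin counts in golli bins (left) and of the Mag bin counts in the alternative exon (right), in percent on the y axis, for 3 WT/WT and 7 mutator mice, with the mean and SD beside the points. The groups overlap in both panels, with means of 1.47% and 1.41% for Mbp and of 3.61% and 3.8% for Mag.

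The sequences before the starts of the genes were read as a description of what members share. SOX factors such as Sox10 bind short sites around the letters ACAANG, and 27 of the 35 genes were found in the RefSeq promoter table of build GRCm38.p6. Mbp, Fa2h, Sox10, Olig1, Car2, Enpp2, Evi2a and Bcas1 were not matched. In the 250 bases before the most upstream listed start, 15 of the 27 (55.6%) held ACAANG on either strand, as did 36.6% of the promoters of 27025 genes. The letters CTGGNAC, a core of the sites of the myelin regulator Myrf, were held by 5 of the 27 (18.5%) and by 15.9% of all. Matches of such short letters are common and do not show a bound site. The windows of 3 genes are printed, with the matches to ACAANG or its reverse complement in capitals, because members with matches had fold changes of either sign. Klk6 with 2 matches and Mag with 2 had lower levels in most mutators, and Mobp with 6 did not. These 3 are examples. The median log2 fold change was -0.25 over the 15 members with ACAANG and -0.08 over the 12 without. A link between matches and fold change was not tested. Klk6 lies at chr7:43824294-43824543 on the plus strand, Mag at chr7:30914923-30915172 on the minus strand and Mobp at chr9:120149492-120149741 on the plus strand.
Klk6 promoter: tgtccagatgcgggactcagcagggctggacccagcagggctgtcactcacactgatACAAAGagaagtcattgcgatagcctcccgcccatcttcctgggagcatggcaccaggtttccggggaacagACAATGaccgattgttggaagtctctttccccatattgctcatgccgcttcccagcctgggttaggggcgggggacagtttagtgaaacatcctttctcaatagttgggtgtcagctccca
Mag promoter: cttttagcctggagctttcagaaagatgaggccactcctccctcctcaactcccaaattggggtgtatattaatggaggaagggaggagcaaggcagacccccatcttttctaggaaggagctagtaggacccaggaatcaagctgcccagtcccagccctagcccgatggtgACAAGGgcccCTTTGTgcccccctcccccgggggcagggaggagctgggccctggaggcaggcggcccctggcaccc
Mobp promoter: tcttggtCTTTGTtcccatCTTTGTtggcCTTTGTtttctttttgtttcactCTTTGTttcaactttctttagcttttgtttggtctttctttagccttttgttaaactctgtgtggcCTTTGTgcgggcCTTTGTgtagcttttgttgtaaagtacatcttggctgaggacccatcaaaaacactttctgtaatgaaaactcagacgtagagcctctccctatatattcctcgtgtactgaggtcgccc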

How the data were processed

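Poly(A)+ RNA of 11 mouse cerebra was sequenced as 100-bp paired ends with an unstranded kit. Per the labels and the methods of the study, the authors aligned reads to mm9 with TopHat2 2.0.6 and Bowtie2 2.0.2.0 and counted them with HTSeq 0.5.3p9 on Ensembl genes, and the deposited values are raw counts per gene (11 mice) and per exon bin (10 mice). Reads are counted in every bin they overlap, and 20.6% to 23.4% of the exon counts fell in no bin and were left out. The deposited comparison tables, which hold fold changes and p-values of the authors, were not used. Without strand, reads of overlapping antisense genes cannot be told apart.

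The members and all gene lists were chosen with earlier results of these data known. The quasi-likelihood test of edgeR 4.0.16 (R 4.3.3) was fitted robustly to the gene counts, with TMM scaling and the filterByExpr minimum, for 7 mutator against 4 control mice, with Benjamini-Hochberg adjustment over all 17983 genes tested and a threshold of 0.05. SEs were taken from the fold change and the F statistic. Exon bins were tested with diffSpliceDGE, 7 against 3 mice, with coefficients turned from natural log to log2. Shares were compared by exact permutation tests. DESeq2 1.42.0, limma 3.58.1 (voom, diffSplice), other scalings, filters and controls, and dropping single mice served as alternatives. Bins were placed on GENCODE vM1 (NCBIM37), whose bin number matched the deposited one for 32 of the 35 genes. All scripts that test many features were tested on simulated data. For some members the value of each control and the lowest, median and highest value of the mutators are given. These members had an adjusted p under 0.05 or, in their role group, the highest level per kilobase or the largest change. Mag was added after its values were seen. Of other lists, tested genes that passed, changed most or had no overlap of levels between the groups are named. A planned single-gene result is not reported here.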

Additional observations from a re-analysis of the deposited data

Results flagged for a closer look

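Among 72 groups of values examined (the 35 genes in 4 controls and in 7 mutators, and the 2 shares in 7 mutators), 5 had 1 mouse set apart from the others by more than Dixon's 95% critical value, which chance gives for about 1 group in 20. All 5 were high values of mutator mouse 217. They were Gal3st1 at 12.9 CPM (next mutator 10.4), Gjb1 at 21.4 CPM (next 16), Lpar1 at 38.3 CPM (next 31.3), Bcas1 at 306 CPM (next 248) and Enpp6 at 7.18 CPM (next 5.4). None of the groups of 4 controls was set apart in this way. The genes are measured in the same libraries, so the 5 are not independent of each other.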

How the results depend on the processing

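No paired analysis was possible because the labels give neither the litter nor the sequencing pool of each mouse, and no mouse number is shared between groups. Litter and pool therefore entered no fit, and their part was not tested. The 2 calls among the 35 genes became 1 with RLE size factors, 1 with upper-quartile factors, 1 with a mean count of at least 10, 9 with DESeq2 and 0 with WT/WT controls only, and 0 to 14 when mice were left out in turn. The count was 14 without mutator mouse 217, 0 without WT/WT mouse 239, WT/D257A mouse 237 or mutator mouse 207, 211 or 248, and 1 without WT/WT mouse 246 or mutator mouse 236, 240 or 249. It was 2 without WT/WT mouse 205, but these were Mag and Olig1, and 2 with no filter, Enpp6 and Fa2h. Without 246 or 249 the single call was Apod, higher in the mutators. The 3 calls among other oligodendrocyte genes became 7 with DESeq2 and 0 with WT/WT controls only, and 0 to 10 when mice were left out, with 10 without mouse 217, 1 without mouse 239 and 0 without mouse 246. The cause was not tested. The median fold change of the 35 genes, chosen with this contrast in view, kept its sign under all 17 distinct alternatives. Of these, WT/WT controls only and leaving out the WT/D257A mouse are 1 fit. No scaling moved the median of all genes by over 0.1. With WT/WT controls only, Olig2 turned to 0.0077. When mice were left out, Olig2 ran from -0.10 to 0.0077, Plekhb1 from -0.0366 to 0.0579 and Aspa from -0.0473 to 0.0495. No bin of the 35 genes was called under any of 13 alternatives. The difference in the Mag exon share ran from 0.13 to 0.26 percentage points, and without mutator mouse 236 it was 0.23 with an exact permutation p of 0.0476. The golli difference ran from -0.11 to -0.01 percentage points. Restricted to the 8 bins before the classic start, chosen after seeing the data, it was -0.02 with an exact permutation p of 0.683. No bin is shared by every coding Mbp transcript, so that denominator gave no value. Klk6, Enpp6 and Ninj2 rest on few counts in the smaller libraries.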
